A study of Homo sapiens with 6 samples.

Results

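The 9 genes described here, HLA-B, HLA-C, HLA-E, HLA-F, B2M, TAP1, TAP2, PSMB8 and PSMB9, encode parts of the MHC class I antigen presentation pathway. They were taken by gene symbol from a table of 59008 gene symbols, and all 9 were listed in it and kept a mean level of at least 1 TPM (transcripts per 1000000, an abundance scaled by transcript length and within each library) over the 6 libraries, as did 14988 genes in all. RNA had been sequenced from Hey and SKOV3, both established human ovarian cancer cell lines, as parental cells, polyploid giant cancer cells (PGCCs) and daughter cells. Parental cells were untreated. PGCCs are enlarged cells with multiplied genomes, and had been induced with 500 nM paclitaxel, a drug that stabilises microtubules, for 16 h, followed by 3 days of recovery. The title of the SKOV3 PGCC library gives day 7 instead, and the 3 days of its treatment label and of the methods were used. Daughter cells had received the same 500 nM for 16 h and had recovered for 30 days, and the title of each daughter library gives it as clone 1. Hey was grown in MEM Eagle medium and SKOV3 in RPMI-1640, both with serum, so cell line and medium cannot be told apart. Each of the 6 groups holds 1 library, so no value below has a replicate error.

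MHC class I molecules show peptides from inside the cell to CD8 T cells. Peptides are cut by the proteasome, whose interferon-inducible subunits PSMB8 and PSMB9 (LMP7 and LMP2) replace the constitutive subunits PSMB5 and PSMB6 and alter which peptides are made. The transporter TAP, a heterodimer of TAP1 and TAP2, carries the peptides into the endoplasmic reticulum, where they are loaded onto a polymorphic heavy chain (here HLA-B or HLA-C) or a less variable one (HLA-E, HLA-F), each paired with the light chain beta-2 microglobulin (B2M). HLA-E is also the ligand of the NKG2A receptor on natural killer cells. In most tissues these genes are induced by interferons through factors such as IRF1 and NLRC5, and the heavy chains also by NF-kappa B.

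Of the 9 genes, 8 lie in the MHC region of chromosome 6 and B2M lies on chromosome 15. TAP2, PSMB8, TAP1 and PSMB9 are neighbours, and the start sites of TAP1 and PSMB9 point away from each other and are 488 bases apart. The stretches before the start sites of 7 genes are shown with exact matches to the short patterns named below. Through elements of these kinds interferon and NF-kappa B signals are known to act on this family. Only exact matches are in capitals, so these stretches may hold variant forms of the elements in lower case. They were taken from RefSeq (GRCh38.p14), are written 5′ to 3′ on the strand of the gene, and have in capitals every match, on either strand, to GAAANNGAA, the core of the interferon-stimulated response element, or to GGGGATTCC, the kappa B site of the class I enhancer A. They span chr6:31357280-31357379 (minus strand) for HLA-B, chr6:31272193-31272292 (minus) for HLA-C, chr6:29723234-29723333 (plus) for HLA-F, chr15:44711367-44711516 (plus) for B2M, chr6:32853705-32853854 (minus) for TAP1, chr6:32838740-32838889 (minus) for TAP2 and chr6:32854042-32854191 (plus) for PSMB9.
HLA-B: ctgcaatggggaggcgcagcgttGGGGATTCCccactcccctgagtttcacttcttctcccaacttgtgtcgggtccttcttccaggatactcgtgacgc
HLA-C: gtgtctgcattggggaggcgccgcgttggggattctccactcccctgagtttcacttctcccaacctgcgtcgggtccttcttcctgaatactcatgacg
HLA-F: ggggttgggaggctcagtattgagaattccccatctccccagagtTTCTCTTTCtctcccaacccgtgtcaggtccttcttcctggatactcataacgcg
B2M: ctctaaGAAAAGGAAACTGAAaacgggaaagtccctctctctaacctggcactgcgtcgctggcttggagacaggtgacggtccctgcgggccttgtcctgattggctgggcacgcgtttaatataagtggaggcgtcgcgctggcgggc
TAP1: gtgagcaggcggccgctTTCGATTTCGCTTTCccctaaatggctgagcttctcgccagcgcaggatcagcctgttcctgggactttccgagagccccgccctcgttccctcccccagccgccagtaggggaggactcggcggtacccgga
TAP2: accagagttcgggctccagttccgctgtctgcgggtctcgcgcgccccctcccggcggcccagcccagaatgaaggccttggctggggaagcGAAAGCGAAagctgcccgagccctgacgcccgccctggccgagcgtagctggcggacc
PSMB9: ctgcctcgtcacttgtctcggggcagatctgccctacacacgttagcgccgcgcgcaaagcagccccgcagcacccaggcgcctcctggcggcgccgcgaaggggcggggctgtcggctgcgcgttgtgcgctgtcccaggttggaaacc

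RefSeq promoter windows were matched for 8 of the 9 genes, HLA-E being the one without an entry, and the 250 bases before each start were searched on both strands for these 2 motifs and for TTCNNNGAA (gamma-activated site) and TGACGTCA (cyclic AMP response element). HLA-B held GGGGATTCC, which begins 177 bases before its start. The most similar stretch of HLA-C, 173 bases before the start, was GGGGATTCT, which differs from the motif by C9T, counted from the 5′ end of the motif. That of HLA-F, 179 bases before the start, was GAGAATTCC, which differs by G2A and G4A. GAAANNGAA occurred once in HLA-F and TAP2 and at 2 overlapping positions each in B2M and TAP1. None of the 4 motifs occurred in the windows of HLA-C, PSMB8 and PSMB9. The search took exact matches only, so variant forms of these elements may be present there. The start of PSMB9 is 488 bases from that of TAP1. The TAP1 matches, 133 and 127 bases before the TAP1 start, therefore lie outside the PSMB9 window. Among all 35116 promoter windows, GAAANNGAA was found in 6.88%, TTCNNNGAA in 6.57%, TGACGTCA in 1.65% and GGGGATTCC in 0.253%. A match describes letters in a window and no binding was measured here.

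ERBB2, which is amplified in SKOV3, lay between 1127 and 1778 TPM in the SKOV3 libraries and between 8.20 and 14.1 TPM in Hey. The keratins KRT8 and KRT18 were above 220 TPM in all 6 libraries, whereas EPCAM stayed at or below 1.43 TPM in Hey. Of the other epithelial genes looked at, KRT19, MUC16 and WT1 stayed in Hey at or below 3.60, 0.032 and 4.10 TPM. PAX8 lay between 54.7 and 94.4 TPM in Hey, and MSLN between 0.386 and 23.3 TPM. In SKOV3, MUC16 and WT1 stayed at or below 1.59 and 2.91 TPM, and PAX8 lay between 65.6 and 136 TPM. EPCAM, KRT19 and MSLN reached 68.8, 711 and 46.1 TPM in SKOV3, and were lowest in its daughter cells (8.15, 80.2 and 1.85 TPM). The leukocyte genes PTPRC and CD3E stayed at or below 0.425 TPM, while CD68 was between 17.1 and 69.3 TPM except in SKOV3 daughter cells (0.840 TPM), and of 3 endothelial genes CDH5 was between 33.2 and 48.5 TPM in Hey, where PECAM1 and VWF stayed at or below 0.272 TPM. Of 5 fibroblast genes, LUM lay between 5.56 and 9.31 TPM in SKOV3, and PDGFRB was at 5.35 TPM in SKOV3 daughter cells and at or below 0.280 TPM elsewhere. DCN, PDGFRA and THY1 stayed at or below 1.33, 0.945 and 0.561 TPM in all 6 libraries. Mitochondrially encoded genes made up between 2.64% (Hey parental) and 14.8% (SKOV3 daughter) of the summed TPM.

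The 9 genes spanned levels from the most abundant transcripts of the cells to the limit of the table. B2M was the highest of them in every library, and ranked between 100 and 321 among all genes. HLA-F was the lowest in all 3 Hey libraries. Without replicates, it cannot be said which neighbours in the order of levels differ by more than the spread between samples.

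**Figure D1:**
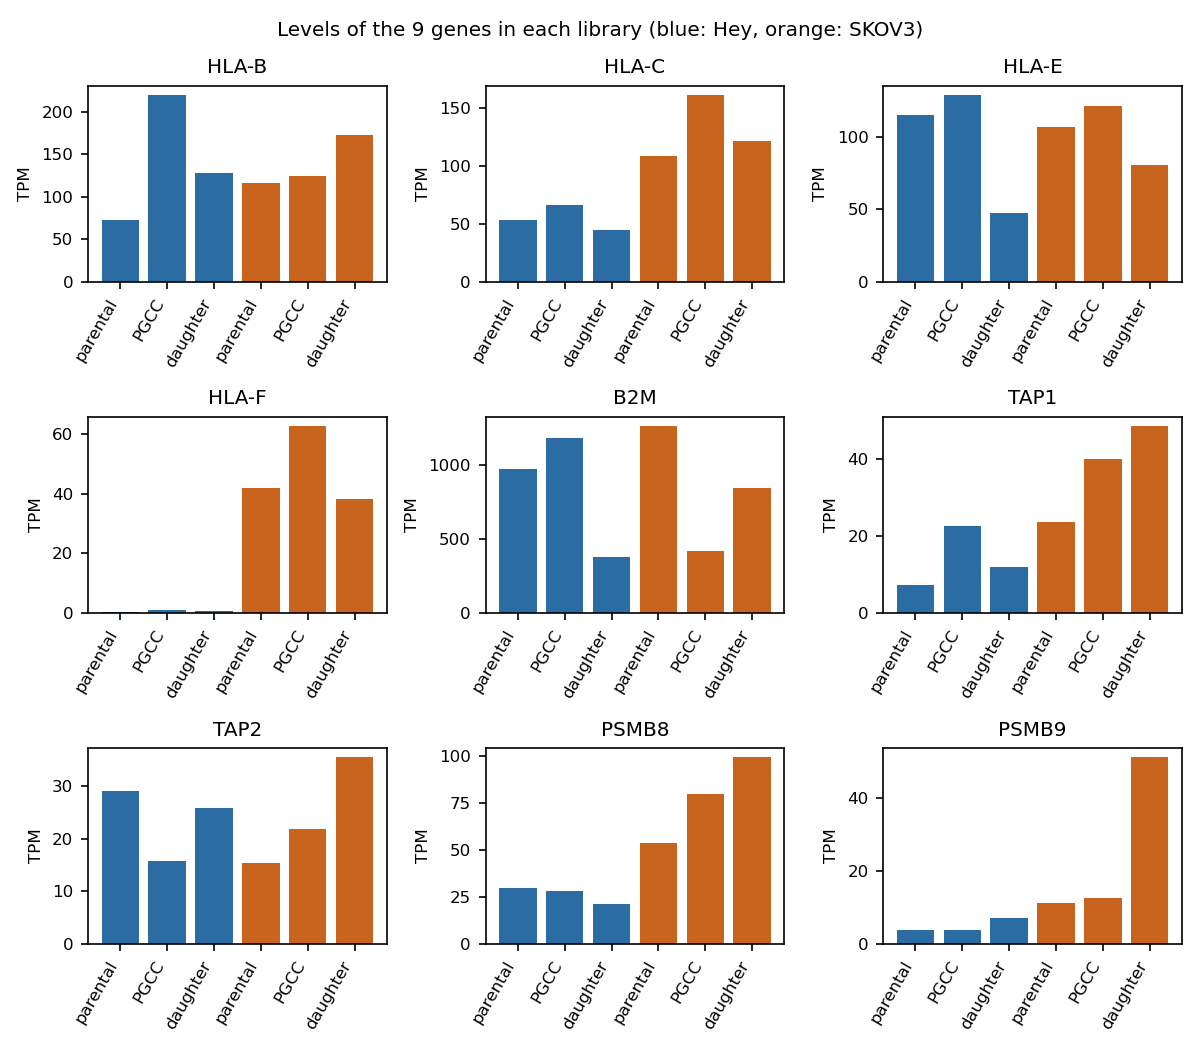
TPM (vertical axis, from 0, a separate scale for each gene) of the 9 genes in the 6 libraries, 1 bar per library and no error bars because each group is 1 library. HLA-F is near 0 in the 3 Hey libraries and between 38.2 and 62.7 TPM in SKOV3, and PSMB9 stands out at 51.2 TPM in SKOV3 daughter cells.

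Among the polymorphic heavy chains, HLA-B stood in Hey at 73.1 TPM (parental), 219 TPM (PGCC) and 128 TPM (daughter), and at 116, 124 and 173 TPM in the same states of SKOV3. Its highest level was thus in PGCCs of Hey but in daughter cells of SKOV3. HLA-C stood at 53.4, 66.1 and 44.9 TPM in Hey and at 109, 161 and 122 TPM in SKOV3. The Hey and SKOV3 values did not overlap, and how many of all genes show this was not counted.

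HLA-E stood at 115, 129 and 47.5 TPM in the parental, PGCC and daughter libraries of Hey and at 107, 121 and 80.8 TPM in SKOV3. It had the same order in both lines, with PGCCs highest and daughter cells lowest, an order that in SKOV3 does not hold once the GC trend described below is removed. HLA-F was listed at 0.128, 0.814 and 0.677 TPM in Hey and at 41.8, 62.7 and 38.2 TPM in SKOV3. Every Hey library was therefore below 1 TPM, and ratios of such low values are not firm because the depth behind them is unknown.

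The light chain B2M stood at 973, 1184 and 378 TPM in Hey and at 1263, 420 and 846 TPM in SKOV3. The low library was the daughter one in Hey and the PGCC one in SKOV3, and these values are close to each other, while the other 4 libraries lay at or above 846 TPM.

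For the transporter, TAP1 stood at 7.22, 22.7 and 11.9 TPM in Hey and at 23.6, 40.2 and 48.7 TPM in SKOV3. Parental cells were lowest in both lines. TAP2 stood at 29.1, 15.7 and 25.8 TPM in Hey and at 15.4, 21.7 and 35.5 TPM in SKOV3. Unlike TAP1, it was lowest in PGCCs of Hey, and its Hey and SKOV3 values overlapped.

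PSMB8 stood at 29.7, 28.2 and 21.4 TPM in Hey and at 53.7, 79.7 and 99.3 TPM in SKOV3. The lines did not overlap for PSMB8, as for HLA-C, HLA-F, TAP1 and PSMB9. The share of all genes with this trait was not counted. A limma fit given below called 20.6% of all genes between the lines at an adjusted p under 0.05. PSMB9 stood at 3.84, 3.69 and 7.22 TPM in Hey and at 11.3, 12.5 and 51.2 TPM in SKOV3. In both lines PSMB9 was highest in daughter cells.

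To ask which of these genes differ between PGCCs and the parental cells they came from, differences of log2(TPM + 1) were computed within each line, and a gene was called at an absolute difference of at least 1, a 2-fold difference on that scale. In Hey, HLA-B and TAP1 were higher in PGCCs, by 1.57 and 1.53 on the log2 scale, which are TPM ratios of 3.00 and 3.14. None of the 9 was called lower. These 2 of 9 stand beside 7.67% of the 14988 genes called higher and 5.22% called lower in that comparison. TAP2 had a difference of -0.85, so the subunits of the transporter lay on opposite sides of 0. HLA-C, HLA-E, HLA-F and B2M lay between 0.16 and 0.69, PSMB8 and PSMB9 at -0.07 and -0.04, and the median of the 9 was 0.28 beside 0.00 for all genes.

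In SKOV3, B2M was the one gene called, at -1.59 in PGCCs, a TPM ratio of 0.332, and 1.00% of the tested genes had a lower difference. None was called higher. The background was 4.96% of genes called lower and 9.94% called higher. The other 8 genes lay between 0.09 (HLA-B) and 0.74 (TAP1), with a median over the 9 of 0.47 beside 0.02 for all genes. The SKOV3 differences rose with the GC content of the transcripts. Over 13468 genes with a known GC content, the Spearman correlation of the difference with GC content was 0.72 in SKOV3 and -0.05 in Hey, and the median difference in SKOV3 went from -0.60 for genes under 40% GC to 0.92 for genes of 60% and more. The heavy chains, TAP1 and PSMB8 have GC contents between 54.9% and 64.7%, and B2M has 41.3%, beside a median of 48.8% over all genes.

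After a smooth trend on GC content and transcript length had been removed, B2M was at -1.13 in SKOV3 PGCCs and was still called, while the median of the 9 turned to -0.08 and 4 of 9 were above 0 instead of 8. The signs of HLA-B, HLA-C, HLA-E and PSMB9 turned, to -0.51, -0.20, -0.81 and -0.08, and TAP1 went to 0.17. After this step 2.47% of all genes were called lower and 2.14% higher in SKOV3. In Hey the same step left HLA-B at 1.65 and TAP1 at 1.62, beside 6.26% of all genes called higher. Whether the trend arose in the cells or in the making of the library was not tested.

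**Figure D2:**
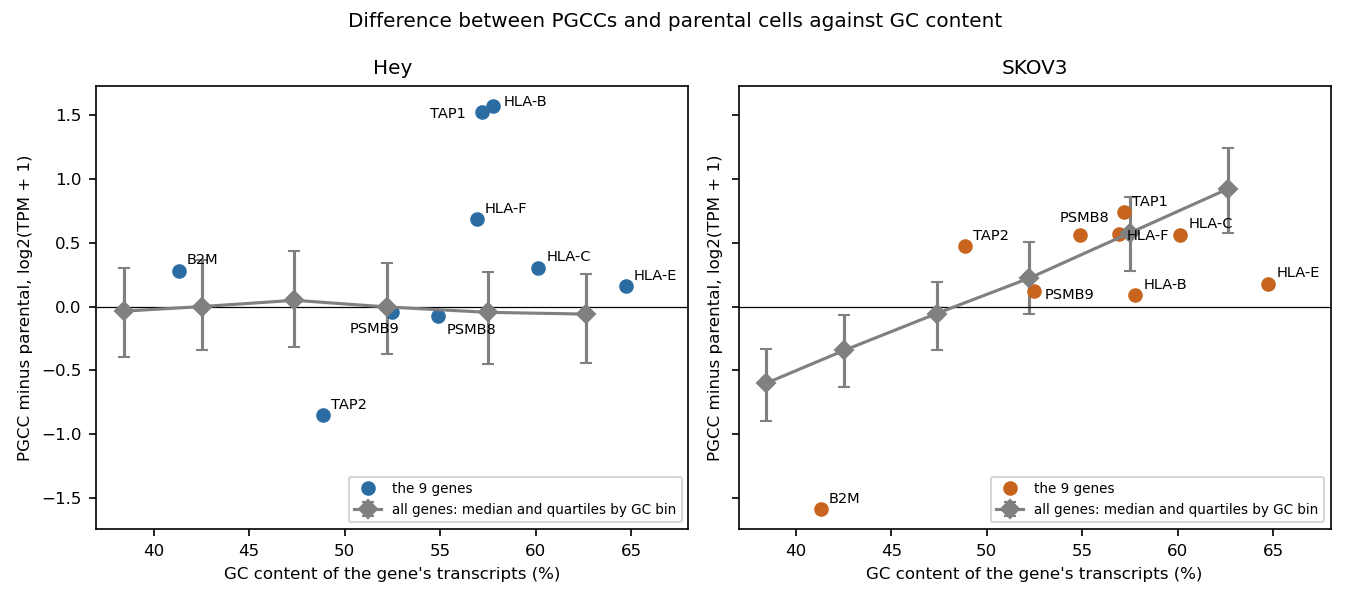
Difference between PGCCs and parental cells in log2(TPM + 1) (vertical axis) against the GC content of the gene's transcripts in percent (horizontal axis), for Hey (left) and SKOV3 (right). Coloured points are the 9 genes, and grey diamonds with bars are the median and quartiles of all genes in 6 bins of GC content. The grey line is flat in Hey and climbs from -0.60 to 0.92 in SKOV3, where B2M at -1.59 lies below the quartiles of genes of like GC content.

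To ask what was kept after recovery, daughter cells were compared with parental cells. In Hey, HLA-E and B2M were lower in daughter cells, at -1.26 and -1.36 on the log2 scale, which are TPM ratios of 0.414 and 0.389. No gene of the 9 was called higher. Over all genes, 3.73% were called lower and 6.31% higher. HLA-B (0.80), PSMB9 (0.76), TAP1 (0.65) and HLA-F (0.57) had positive differences under the threshold, and the median of the 9 was -0.17.

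In SKOV3, PSMB9 was higher in daughter cells by 2.08 on the log2 scale, a TPM ratio of 4.51, with TAP2 at 1.16 and TAP1 at 1.01. These are 3 of 9 genes beside 15.1% of all genes called higher. None was called lower, beside 6.34% of all genes. PSMB8 followed at 0.88 and HLA-B at 0.57, whereas B2M (-0.58), HLA-E (-0.40) and HLA-F (-0.13) were below 0. The 4 genes of the TAP and proteasome cluster thus had the 4 largest differences of the 9. With the median ratio of each library taken as its scale, TAP1 and TAP2 came to 0.83 and 0.98, and after trend removal to 0.67 and 0.82, so that PSMB9, at 1.92 after trend removal, was the one gene called in both settings. B2M and HLA-E had negative differences in both lines, and HLA-B, TAP1 and PSMB9 positive ones.

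**Figure D3:**
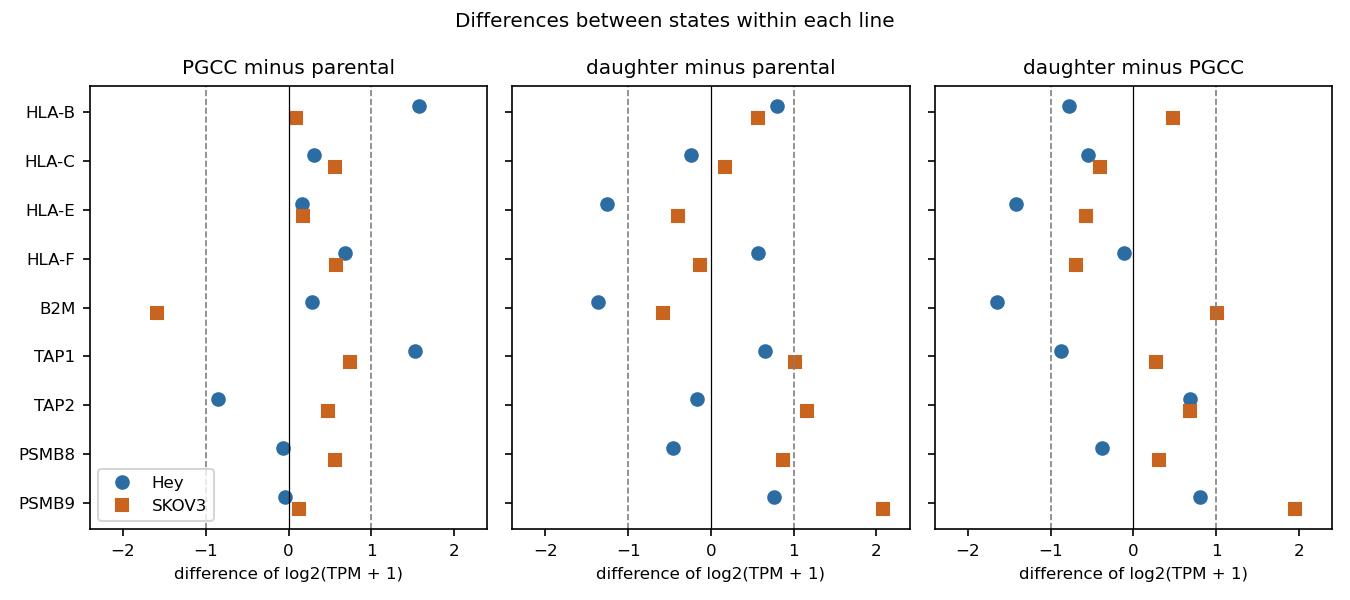
Differences in log2(TPM + 1) (horizontal axis) of the 9 genes (rows) between states within Hey (circles) and SKOV3 (squares), with dashed lines at the 2-fold threshold. Only HLA-B and TAP1 in Hey lie beyond the upper line for PGCCs against parental cells, and PSMB9 in SKOV3 daughter cells has the highest difference of the plot, at 2.08.

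Daughter cells were also set against PGCCs, a comparison that shares its libraries with the 2 above. In Hey, HLA-E (-1.42) and B2M (-1.64) were called lower and none of the 9 higher, beside 8.13% and 9.95% of all genes. TAP1 (-0.87), HLA-B (-0.77) and HLA-C (-0.55) were also below 0, and TAP2 (0.68) and PSMB9 (0.81) above it. With the trend removed TAP1 was at -1.10 and was called as well, which made 3 of 9 lower beside 8.49% of all genes after that step. In SKOV3, PSMB9 (1.96) and B2M (1.01) were called higher and none lower, beside 14.6% and 9.25% of all genes. The difference of this SKOV3 comparison had a Spearman correlation of -0.45 with GC content, and with the trend removed PSMB9 stayed at 1.997 while B2M came to 0.55.

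All 6 libraries were tested together in a limma fit with state and cell line as terms. Its 2 residual degrees of freedom measure how far the state differences depart from each other between the lines, not the error of replicates. None of the 9 genes had an adjusted p under 0.05 for PGCCs against parental cells, daughter against parental cells or daughter cells against PGCCs (limma with Benjamini-Hochberg adjustment, smallest adjusted p of the 9 genes 1.000, 1.000 and 0.908). Over all genes the same contrasts called 3, 2 and 0 genes, or 0.02%, 0.0133% and 0.0% of those tested. At an unadjusted p under 0.05 (limma) there were 409, 508 and 758 genes, or 2.73%, 3.39% and 5.06% of those tested. Among the 9 these were TAP1 in PGCCs against parental cells (1.13 ± 0.43, SE, limma unadjusted p = 0.032), PSMB9 in daughter against parental cells (1.42 ± 0.47, SE, limma unadjusted p = 0.019), and for daughter cells against PGCCs HLA-E (-0.997 ± 0.39, SE, limma unadjusted p = 0.036) and PSMB9 (1.38 ± 0.47, SE, limma unadjusted p = 0.021).

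In the same fit, 5 of the 9 genes had an adjusted p under 0.05 for SKOV3 against Hey over all states, beside 20.6% of all genes, and all 5 were higher in SKOV3. HLA-F was higher by 4.98 ± 0.35 on the log2 scale (SE, limma adjusted p = 0.000283), PSMB9 by 1.85 ± 0.39 (adjusted p = 0.017, limma), PSMB8 by 1.48 ± 0.35 (adjusted p = 0.026, limma), TAP1 by 1.44 ± 0.35 (adjusted p = 0.028, limma) and HLA-C by 1.24 ± 0.29 (adjusted p = 0.025, limma). For HLA-B, HLA-E, B2M and TAP2 the fitted difference was between 0.01 and 0.19, with a standard error between 0.32 and 0.49, and with median-ratio scaling it was below 0 for each of them (-0.33 to -0.15). With median-ratio scaling 2 of these 5 genes, HLA-F and PSMB9, kept an adjusted p under 0.05 (limma). HLA-F was the 1 of the 5 to keep an adjusted p under 0.05 when genes of low level were not filtered out (limma, adjusted p = 0.022), and with the PGCC libraries left out, with 1 residual degree of freedom, none of the 5 did (smallest adjusted p of the 9 genes 0.072, limma, HLA-F).

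Set side by side by state, SKOV3 parental cells had 4 of the 9 genes called higher than Hey parental cells and none lower, beside 24.2% and 11.5% of all genes. They were HLA-F (5.25), TAP1 (1.58), PSMB9 (1.35) and HLA-C (1.01). After trend removal HLA-C came to 0.83 and TAP2 was called lower, at -1.15, beside 16.1% of all genes called lower after that step. Between the PGCC libraries 4 were called higher in SKOV3, beside 29.6% of all genes. They were HLA-F (5.13), PSMB9 (1.52), PSMB8 (1.46) and HLA-C (1.27). B2M (-1.49) was the 1 called lower, beside 13.4% of all genes. After trend removal in that comparison, 2 were higher (HLA-F and PSMB9) and 3 lower (HLA-B at -1.77, B2M at -1.44 and HLA-E at -1.29), beside 17.4% and 17.6% of all genes after the same step. Between the daughter libraries 6 were called higher in SKOV3 and none lower, beside 29.5% and 12.3% of all genes. HLA-F (4.55), PSMB9 (2.67), PSMB8 (2.16), TAP1 (1.94), HLA-C (1.42) and B2M (1.16) were these 6, of which B2M came to 0.86 after trend removal. The median of all genes itself lay between 0.29 and 0.38 above 0 in the 3 comparisons of lines, and the values are to be read against it. With median-ratio scaling the median of all genes came to between 0.04 and 0.06. HLA-C, HLA-F, PSMB8 and PSMB9 were higher in SKOV3 in each of the 3 comparisons, in every setting run on all 6 libraries. TAP1 was too, except in PGCCs, where it went from 0.80 to -0.12 with the trend removed.

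Because the heavy chains are alike in much of their sequence, reads may be divided among their rows, so their sum is given as well. The sum still depends to some extent on that division, because TPM is scaled by transcript length, and it does not cover reads shared with other class I loci. The sum of HLA-B, HLA-C, HLA-E and HLA-F stood in Hey at 241 TPM (parental), 415 TPM (PGCC) and 221 TPM (daughter), and at 374, 469 and 414 TPM in SKOV3. PGCCs had the highest sum in both lines, by a ratio to parental cells of 1.72 in Hey and 1.25 in SKOV3. In SKOV3 this was not kept after trend removal, where 3 of the 4 heavy chains lay below 0, as given above, and HLA-F was at 0.05. HLA-B alone made up 30.3%, 52.8% and 57.9% of the sum in Hey and 31.1%, 26.5% and 41.8% in SKOV3. Between Hey parental and daughter cells, then, the sum differed little while its makeup went from HLA-E as the largest part to HLA-B. With HLA-G and the class I pseudogenes added, the sums were higher by between 6.39 and 13.8 TPM.

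Light chain transcripts exceeded the summed heavy chains in all but one library. The ratio of B2M to the sum was 4.03, 2.85 and 1.71 in the parental, PGCC and daughter libraries of Hey and 3.38, 0.895 and 2.04 in SKOV3. Parental cells had the highest ratio in both lines, and SKOV3 PGCCs, the library with the GC trend, the lowest. The ratio of TAP1 to TAP2 was 0.248, 1.45 and 0.462 in Hey and 1.54, 1.85 and 1.37 in SKOV3. TAP2 therefore exceeded TAP1 in Hey parental and daughter cells, and TAP1 exceeded TAP2 in the other 4 libraries. In both lines the ratio was highest in PGCCs, but after trend removal the SKOV3 difference from parental cells was smaller for TAP1 (0.17) than for TAP2 (0.39).

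Each inducible proteasome subunit was then divided by the constitutive subunit it replaces. PSMB8 over PSMB5 was 0.283, 0.243 and 0.209 in Hey and 0.520, 0.681 and 0.665 in SKOV3. PSMB9 over PSMB6 was 0.026, 0.022 and 0.042 in Hey and 0.090, 0.076 and 0.577 in SKOV3. The ratio of 0.577 in SKOV3 daughter cells joined the high PSMB9 (51.2 TPM) to a PSMB6 level of 88.7 TPM, the lowest of the 6 libraries. PSMB10 over PSMB7, the remaining pair, was 0.062 in the SKOV3 PGCCs, 0.069 in the SKOV3 daughter cells and between 0.020 and 0.029 in the other 4 libraries. The ratios were not corrected for the GC trend of the SKOV3 PGCCs. Its removal took their log2 difference from parental cells from 1.33 to 0.46 for PSMB10 and from 0.56 to 0.17 for PSMB8. That of PSMB7 went from -0.20 to -0.19 and that of PSMB5 from 0.18 to -0.02. In no library did an inducible subunit reach its constitutive partner.

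**Figure D4:**
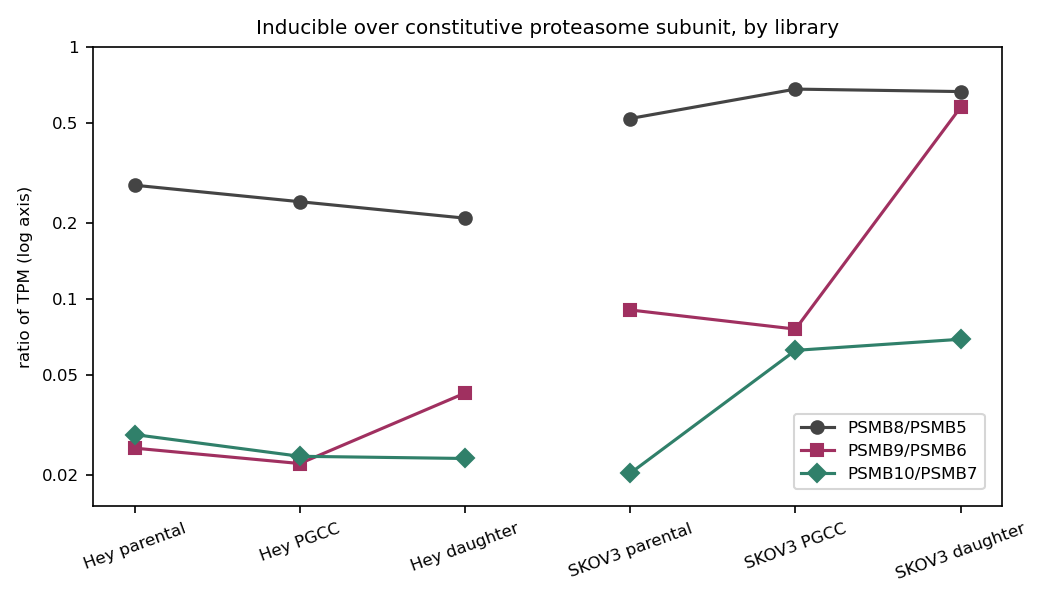
Ratio of the TPM of each inducible proteasome subunit to that of the constitutive subunit it replaces (vertical axis, logarithmic) in the 6 libraries (horizontal axis), with lines joining the states of 1 line. PSMB9/PSMB6 lies between 0.022 and 0.090 in 5 libraries and at 0.577 in SKOV3 daughter cells.

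The other 64 genes of the pathway list reported here, of which 49 had a mean TPM of at least 1, gave the setting of these values. In PGCCs against parental cells, 2 were called higher and 1 lower in Hey: the NKG2D ligand ULBP2 (1.11), the interferon signalling factor IRF9 (1.09) and the cytosolic peptidase THOP1 (-1.61). In SKOV3 it was also 2 and 1, namely PSMB10 (1.33, or 0.46 after trend removal), the MHC promoter factor RFXANK (1.13, or 0.35) and the interferon receptor chain IFNAR1 (-1.35, or -1.05). These counts stand beside the 7.67% and 5.22% of all genes called higher and lower in Hey, and 9.94% and 4.96% in SKOV3. The 49 genes had medians of 0.10 in Hey and 0.11 in SKOV3.

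Daughter cells of the lines differed from their parental cells in different numbers of pathway genes. In Hey 0 of the 49 were called higher and 1 lower, the neonatal Fc receptor heavy chain FCGRT (-1.88), with a median of -0.04. In SKOV3 14 were called higher and 0 lower, or 10 higher after trend removal, with a median of 0.48 beside 0.15 for all genes. That line had the largest background as well, 15.1% called higher, as given above, or 10.9% after trend removal. Of the loading and trimming group, 2 of 7 were called, the trimming peptidase ERAP1 (1.74) and TAPBP (1.30, or 0.94 after trend removal), that is tapasin, which bridges TAP and the heavy chain. Of the proteasome group, 3 of 7 were called, the activator subunits PSME2 (1.26) and PSME1 (1.16) and the inducible subunit PSMB10 (1.10), of which trend removal took PSME1 to 0.997 and PSMB10 to 0.80.

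Among the 14 regulators in SKOV3 daughter cells, 3 were called, IRF9 (1.92, from 0.325 to 4.03 TPM), RFX5 (1.31) and RFXANK (1.20), the last of these at 0.90 after trend removal. Of 7 interferon signalling genes, the interferon gamma receptor chain IFNGR1 (1.25) was called. Of 8 class I-like genes, 4 were called: FCGRT (3.49, from 0.104 to 11.4 TPM), the NKG2D ligands ULBP1 (2.25) and MICB (1.83), and MR1 (1.53), which was named after its value was seen. The counts in these groups stand beside 15.1% of all genes called higher. After trend removal 2 of 14, 1 of 7 and 4 of 8 were called, beside 10.9% of all genes. In the class II group, CD74, the invariant chain, was listed at 0 in SKOV3 parental cells and at 14.9 TPM in daughter cells, and CIITA, the class II transactivator, did not exceed 0.220 TPM in any library.

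**Figure D5:**
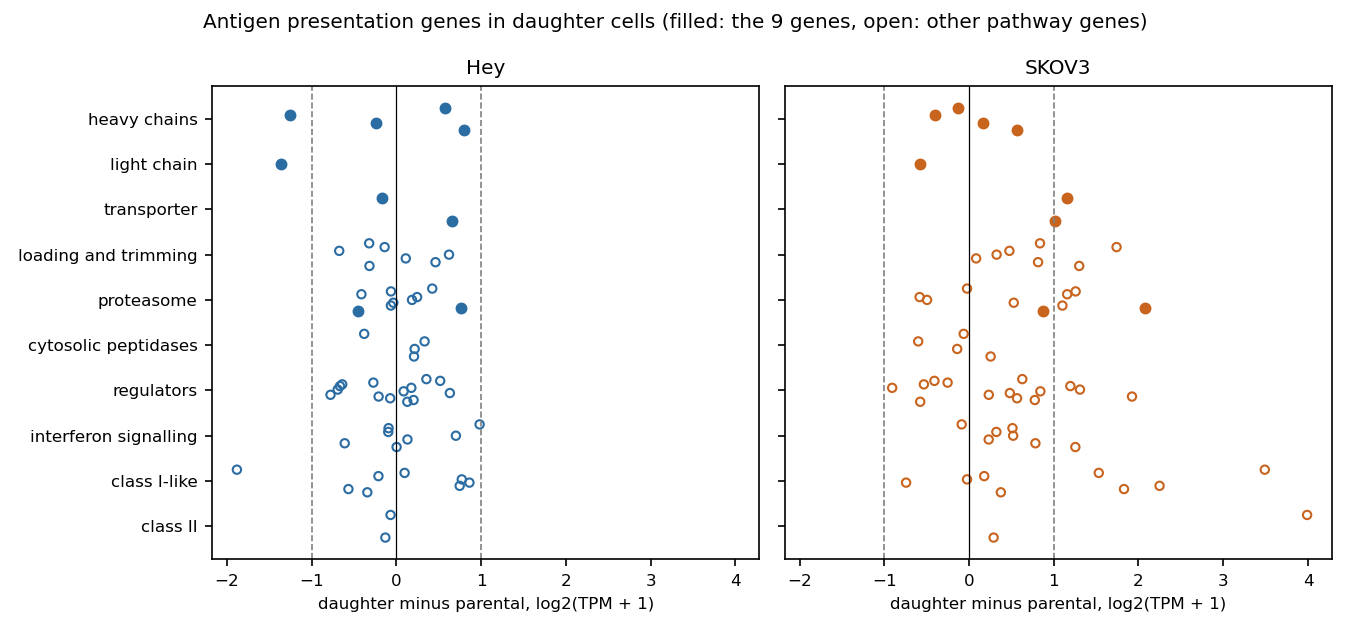
Daughter minus parental difference in log2(TPM + 1) (horizontal axis) of pathway genes averaging 1 TPM or more, by functional group (rows), in Hey (left) and SKOV3 (right). Filled points are the 9 genes described here, open points the 49 others, and dashed lines the 2-fold limits. In Hey 1 open point lies beyond a limit, on the lower side, and in SKOV3 14 lie beyond the upper limit.

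The regulators that act on class I promoters did not share 1 order of levels. IRF1 stood at 8.39, 14.3 and 9.81 TPM in the parental, PGCC and daughter libraries of Hey and at 17.2, 33.3 and 30.2 TPM in SKOV3, with parental cells lowest in both lines, as for TAP1. NLRC5, the class I transactivator, stood at 1.82, 1.11 and 2.09 TPM in Hey and at 3.92, 8.20 and 2.30 TPM in SKOV3. It was thus highest in SKOV3 PGCCs and, within SKOV3, lowest in daughter cells, though still above each Hey library. Its log2 difference between SKOV3 PGCCs and parental cells was 0.90, or 0.30 after trend removal. The interferon genes themselves, IFNB1 and IFNG, were listed at 0 in all libraries except for IFNG at 0.153 TPM in SKOV3 daughter cells.

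In daughter cells against PGCCs, 2 of the 49 genes were called higher and 3 lower in Hey, and 14 higher and 2 lower in SKOV3. Of all genes, 9.95% and 8.13% were called in Hey and 14.6% and 9.25% in SKOV3. THOP1 was among the genes higher in Hey (1.94) and among those lower in SKOV3 (-1.51, or -0.88 after trend removal). In SKOV3 the higher genes included IFNGR1 (1.77), IFNAR1 (1.58) and ERAP2 (1.24, or 0.75 after trend removal), and NLRC5 (-1.48) was lower. Between the lines, SKOV3 had 5 genes called higher and 6 lower in parental cells, 9 and 7 in PGCCs, and 17 and 3 in daughter cells. The shares of all genes were 24.2% and 11.5%, 29.6% and 13.4%, and 29.5% and 12.3%. After trend removal the counts were 2 higher and 11 lower in parental cells, 3 and 9 in PGCCs, and 11 and 5 in daughter cells. The shares of all genes after that step were 16.3% and 16.1%, 17.4% and 17.6%, and 19.7% and 18.8%.

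Several of the 9 genes overlap other genes, and whether reads were assigned by strand is not given in the sources used here. HLA-F (GRCh38, chromosome 6, 29722775 to 29738528, plus strand) is overlapped on the minus strand by HLA-F-AS1, which was at or below 0.399 TPM in Hey and stood at 16.3, 15.2 and 1.28 TPM in SKOV3. RPL23AP1, which also overlaps HLA-F on the minus strand, was at or below 0.476 TPM in Hey and stood at 17.0, 10.8 and 0 TPM in SKOV3. HLA-F itself was at 38.2 TPM in the SKOV3 daughter cells. PSMB9 (32844136 to 32859851, plus strand) overlaps TAP1 (32845209 to 32853816) and PSMB8 (32840717 to 32844679) on the minus strand in the GENCODE annotation. The antisense gene PSMB8-AS1, which overlaps the same loci, was between 4.77 and 5.58 TPM in all 3 SKOV3 libraries. From SKOV3 parental to daughter cells, PSMB9 went from 11.3 to 51.2 TPM, TAP1 from 23.6 to 48.7 TPM and PSMB8 from 53.7 to 99.3 TPM. Whether reads of overlapping genes entered each other's values was not tested.

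As each library is a bulk extract, more RNA per cell and more cells with the transcript cannot be told apart in any of these values.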

How the data were processed

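RNA-seq of 6 libraries, 1 for each state of Hey and SKOV3, was used. The submitters' processing notes name fastp, salmon 0.14.1 and hg38. Per the methods, the authors mapped cleaned reads to the human transcriptome with salmon, and they deposited TPM, transcripts per 1000000, as 1 value per gene symbol. The annotation release, bias options and the step from transcripts to genes are not given in the sources used here. The columns sum to between 911825 and 920497 TPM. TPM carries no counts, so depth per gene and counting error are unknown.

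Values were compared as log2(TPM + 1), a scale that understates differences of low genes, and called at 2-fold among the 14988 genes averaging 1 TPM or more. Single libraries were compared without a p-value. The test was limma 3.58.1 (R 4.3.3) with state and line, an intensity trend and Benjamini-Hochberg adjustment over all genes. GC content and length came from GENCODE 44 by symbol (13468 genes, all 9 members), and trends were removed by lowess (fraction 0.3, 2 passes). Other steps used Python 3.11.15, pandas 2.3.3 and statsmodels 0.14.6.

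Alternatives were a pseudocount of 0.1, a mean TPM of 5 or no filter, median-ratio and quantile scaling, mitochondrial genes left out, 1.5-fold and 3-fold limits and trend removal. For limma, the other factor, the intensity trend or the PGCC libraries were left out. Always named were the 9 genes, PSMB10, PSMB5, PSMB6, PSMB7, TAPBP, NLRC5 and IRF1, and of other pathway genes at most the 3 largest past 2-fold per comparison and group. The members and lists were chosen with earlier results of these data known. 2 further genes of the list are not reported here and were left out of its counts. The scripts were tested on simulated data.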

Additional observations from a re-analysis of the deposited data

Results flagged for a closer look

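Genes were looked at again where the same contrast had opposite signs in Hey and SKOV3 and was past 2-fold in at least one of them. With 1 library per group, none of these differences between the lines was tested.

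B2M met this in 2 contrasts. For PGCCs against parental cells it was at 0.28 in Hey and -1.59 in SKOV3 (log2(TPM + 1)), and for daughter cells against PGCCs at -1.64 in Hey and 1.01 in SKOV3. Both contrasts share the PGCC libraries, and after removal of the GC and length trend the SKOV3 values were -1.13 and 0.55. TAP2 met it for daughter against parental cells, at -0.17 (Hey) and 1.16 (SKOV3), which was 0.82 with the trend removed.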

How the results depend on the processing

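No paired analysis was possible because each group holds 1 library and no replicate numbers pair them, and states were compared within cell lines through the line term of limma. No difference that passed 2-fold changed sign under any alternative, and 832 of 927 single-gene values kept their direction and side of the threshold. Part of this was fixed in advance. The filters and the 1.5-fold and 3-fold limits reuse the same differences between single libraries, so no sign could change there. The filters could not move such a difference across the 2-fold limit either. Counts of the 9 genes that moved by over 1.5 times are given next, and the others stayed within that limit. Shares over all genes also change with the setting, and are given below only for trend removal. The counts therefore show how the calls of the 9 moved, not how they compare with all genes.

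With the 1.5-fold limit, PGCCs against parental cells gave 1 lower in Hey and 1 higher in SKOV3, daughter against parental cells 3 higher in Hey, daughter cells against PGCCs 2 higher and 4 lower in Hey and 1 lower in SKOV3, and SKOV3 against Hey 1 lower in parental cells and 2 lower in PGCCs. With the 3-fold limit, 0 were higher in Hey PGCCs and 0 lower in Hey daughter against parental cells. There, 1 was higher in SKOV3 daughter cells against either state, 1 lower in Hey daughter cells against PGCCs, and for SKOV3 against Hey 1 higher in parental cells, and 1 higher and 0 lower in PGCCs.

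Median-ratio scaling gave 1 higher in SKOV3 daughter cells against either state, and 1 (parental) and 2 (PGCCs) lower in SKOV3 than Hey. Quantile scaling gave 2 higher and 1 lower for the lines in parental cells and 2 lower in PGCCs. A pseudocount of 0.1 gave 1 higher in Hey daughter against parental cells. Removing the GC and length trend gave 1 higher in SKOV3 daughter cells against either state, and for SKOV3 against Hey 1 lower in parental cells and 2 higher and 3 lower in PGCCs. Of all genes, the same step called 10.9% higher in SKOV3 daughter against parental cells and 10.4% against PGCCs. For SKOV3 against Hey it called 16.1% lower in parental cells, and 17.4% higher and 17.6% lower in PGCCs. In limma, SKOV3 against Hey kept 1 of 5 genes without a filter (31474 genes tested), 2 with median ratios and 0 without the PGCC libraries, where 1 residual degree of freedom remains. Apart from these, the cause was not tested. Values of HLA-F in Hey, under 1 TPM in each library, are the least firm.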

Other observations

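Over the 6 libraries, the level of each of the 9 genes (log2(TPM + 1)) was set against the mean standardised level of the other 8. PSMB8 (Pearson r = 0.93), TAP1 (0.88), HLA-C (0.86), HLA-F (0.79) and PSMB9 (0.72) followed it, and HLA-B (0.24), HLA-E (0.18), B2M (0.03) and TAP2 (-0.09) did so little. These are descriptions over 6 libraries that share 2 cell lines. The genes of the whole table closest to the mean profile of the 9 were AC010883.1, SLC41A2, ZNF699, SMCO2 and ZNF329, with r between 0.996 and 0.999 over the same 6 libraries. SLC41A2, the one of these with the highest levels, stood at 8.72, 16.4 and 3.59 TPM in the parental, PGCC and daughter libraries of Hey and at 29.8, 40.7 and 99.1 TPM in SKOV3.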
